A study of Apeltes quadracus with 21 samples.

Results

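The posterior *HOXC* genes described here are *HOXC9A*, *HOXC10A*, *HOXC11A* and *HOXC12A*, 4 of the 31532 gene models in a table of RNA-seq read counts from the four-spine stickleback *Apeltes quadracus*. They were chosen by name, as the genes of paralogue groups 9 to 12 in the *HOXC* cluster, and all 4 were measured and passed the filter on low counts that left 21134 gene models for testing. The libraries came from 7 tissues of each of 3 fish: dorsal spines 1, 2 and 3 (DS1, DS2, DS3), a blank pterygiophore (Pter, a midline bony plate that carries no spine), the last dorsal spine (DSL) and the 2 median fins, dorsal (DF) and anal (AF). The order DS1, DS2, DS3, Pter, DSL, DF runs from front to back along the dorsal midline, while the anal fin lies on the ventral side. All fish were at the finfold stage (stage 31), came from laboratory clutches of the Louisbourg population and had the L/L genotype at *hoxdb*, so every tissue comparison was made within 1 genotype and 1 population. Each replicate number was 1 fish, and library totals ranged from 26357373 to 34564481 counts.

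*Hox* genes encode homeodomain transcription factors that give cells their position along the head-to-tail axis. They stand in clusters, and the order of the genes in a cluster matches the order in which they are used along the body, with genes at one end of the cluster used in front and genes at the other end used towards the tail. Genes of the same group in different clusters are paralogues, and the posterior groups of the *HOXA* and *HOXD* clusters are also known for patterning limbs and fins. In mouse, *Hoxc9* is known for setting the motor columns of the thoracic spinal cord, *Hoxc10* acts with its paralogues in the lumbar region, and *Hoxc11* belongs to the group that patterns the sacral region.

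In the authors' assembly, which was scaffolded along the *Gasterosteus* chromosomes, the 4 genes lay side by side on the plus strand of chromosome 12, with the posterior end first. *HOXC12A* ran from 10228748 to 10232455, *HOXC11A* from 10239775 to 10242780, *HOXC10A* from 10248576 to 10253967 and *HOXC9A* from 10258352 to 10261010. The 4 gene models spanned 32263 bp, and the gaps between them were 7319, 5795 and 4384 bp from *HOXC12A* to *HOXC9A*. *HOXC13A* lay 7076 bp before *HOXC12A*, and *HOXC8A* followed *HOXC9A* after 3079 bp. *HOXC10A* had 3 exon blocks and the other members 2 each, with summed exon lengths of 2628 bp (*HOXC12A*), 1722 bp (*HOXC11A*), 2671 bp (*HOXC10A*) and 1559 bp (*HOXC9A*). No other gene model overlapped a member on either strand, and none lay between the outer ends of the 4, so their reads were not shared with an annotated neighbour.

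The tissue with the highest mean level was DS3 for *HOXC9A*, DSL for *HOXC10A* and the anal fin for *HOXC11A* and *HOXC12A*. *HOXC9A* was read in all 21 libraries. *HOXC10A* was also read in all 21 libraries, but went from a trace in DS1 to its highest mean level in DSL and stood close to it in both fins. *HOXC11A* had no read in DS1 or DS2, had 1 read in DS3 and was read in every library from the pterygiophore on. *HOXC12A* reached at most 5 reads in any of the 15 spine and pterygiophore libraries and at least 275 in each of the 6 fin libraries.

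**Figure D1:**
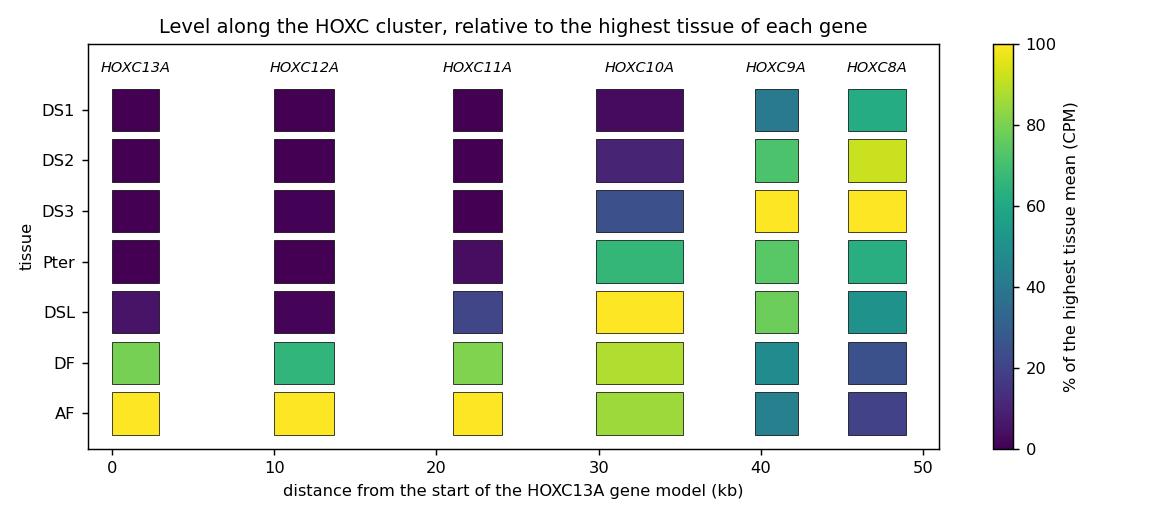
Mean level of each *HOXC* gene in each tissue as a percentage of that gene's highest tissue mean (colour), drawn at the position of its gene model in kb from the start of *HOXC13A* (x axis). From right to left along the cluster the tissue with the highest mean moved from DS3 for *HOXC8A* and *HOXC9A* to DSL for *HOXC10A* and to the anal fin for *HOXC11A*, *HOXC12A* and *HOXC13A*. For each gene the libraries of this tissue overlapped those of the tissue with the next highest mean. The anal-fin maximum of *HOXC13A* rested on 1 fish, which held 25 of its 26 reads there, and in the other 2 fish the level was higher in the dorsal fin.

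Over all 7 tissues, levels differed for 4 of 4 members in edgeR's quasi-likelihood F test, against 20.2% of all tested gene models. The edgeR adjusted p was 2.18e-09 for *HOXC11A*, 1.18e-08 for *HOXC12A*, 3.58e-06 for *HOXC10A* and 0.00129 for *HOXC9A*. The call of *HOXC9A* was lost without the fish of replicate 2 (edgeR adjusted p = 0.100). Because each sample was a piece of tissue, a lower level cannot tell fewer expressing cells from less RNA per cell. Levels are given below as reads, or as CPM, counts brought to a common library total after scaling by trimmed-mean (TMM) factors.

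*HOXC9A* had its highest level in DS3 and lower levels on both sides of it. Reads in the fish of replicates 1, 2 and 3 were 407, 278 and 174 in DS1, 556, 287 and 479 in DS2, and 673, 464 and 534 in DS3. They were 370, 366 and 324 in Pter, 551, 503 and 443 in DSL, 375, 324 and 351 in DF, and 325, 286 and 299 in AF. The mean level was 8.53 ± 2.55 CPM in DS1, 14.96 ± 4.58 in DS2, 20.9 ± 3.69 in DS3, 15.5 ± 1.35 in Pter, 16.2 ± 3.26 in DSL, 10.01 ± 0.591 in DF and 9.01 ± 0.736 in AF (SD, n = 3 each). With TMM factors, DS3 stood above each of the other 6 tissues in every fish, and the 3 DS3 libraries did not overlap those of DS1, Pter, DF or AF. In the fish of replicate 2 the order of DS3 and DSL depended on the scaling, with 464 reads of 27087112 counts in DS3 and 503 of 28146012 in DSL. In the order of the means, DS3, DSL, Pter and DS2 each overlapped the next, as did DF, AF and DS1, whereas DS2 and DF did not overlap.

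*HOXC10A* was higher from spine to spine towards the back and near level from DSL to the fins. Reads were 37, 14 and 6 in DS1, 79, 21 and 65 in DS2, and 176, 80 and 109 in DS3 in the fish of replicates 1, 2 and 3. They were 373, 262 and 203 in Pter, 689, 548 and 475 in DSL, 696, 526 and 492 in DF, and 697, 484 and 446 in AF. The mean level was 0.549 ± 0.424 CPM in DS1, 1.84 ± 1.014 in DS2, 4.53 ± 1.73 in DS3, 12.3 ± 4.26 in Pter, 18.6 ± 5.30 in DSL, 16.4 ± 3.23 in DF and 15.9 ± 2.15 in AF (SD, n = 3 each). Each step from DS1 to DSL was upward in 3 of 3 fish. Pter did not overlap DS3 and DS3 did not overlap DS2, while Pter, DSL, DF and AF overlapped one another as neighbours in this order of levels.

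*HOXC11A* was the most abundant of the 4 genes in the fins, and it separated the pterygiophore and the last spine from the spines in front of them. All 6 libraries of DS1 and DS2 had 0 reads out of 184268481 counts, which allows a level of up to 0.016 CPM (3 counts over the 6 libraries). DS3 had 1 read, in the fish of replicate 1, whereas Pter had 53, 30 and 17 reads, DSL 344, 265 and 297, DF 1335, 1163 and 1444, and AF 2252, 1070 and 1526. These groups did not overlap from DS3 to Pter, from Pter to DSL or from DSL to DF. The mean level was 1.47 ± 0.864 CPM in Pter, 9.78 ± 2.05 in DSL, 37.5 ± 2.32 in DF and 46.6 ± 10.4 in AF (SD, n = 3 each), and the fins overlapped each other.

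*HOXC12A*, which stands next to the posterior end of the cluster, was nearly absent outside the fins. DS1 and DS2 had 0 reads in 6 libraries, DS3 had 2, 0 and 4, Pter 0, 1 and 0, and DSL 4, 2 and 5. DF had 287, 359 and 379 reads and AF had 829, 275 and 478. No spine or pterygiophore library came near a fin library, and the levels in DS3, Pter and DSL overlapped or lay within a few reads of each other. The mean level was 0.117 ± 0.0459 CPM in DSL, 9.78 ± 1.40 in DF and 14.96 ± 5.87 in AF (SD, n = 3 each).

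**Figure D2:**
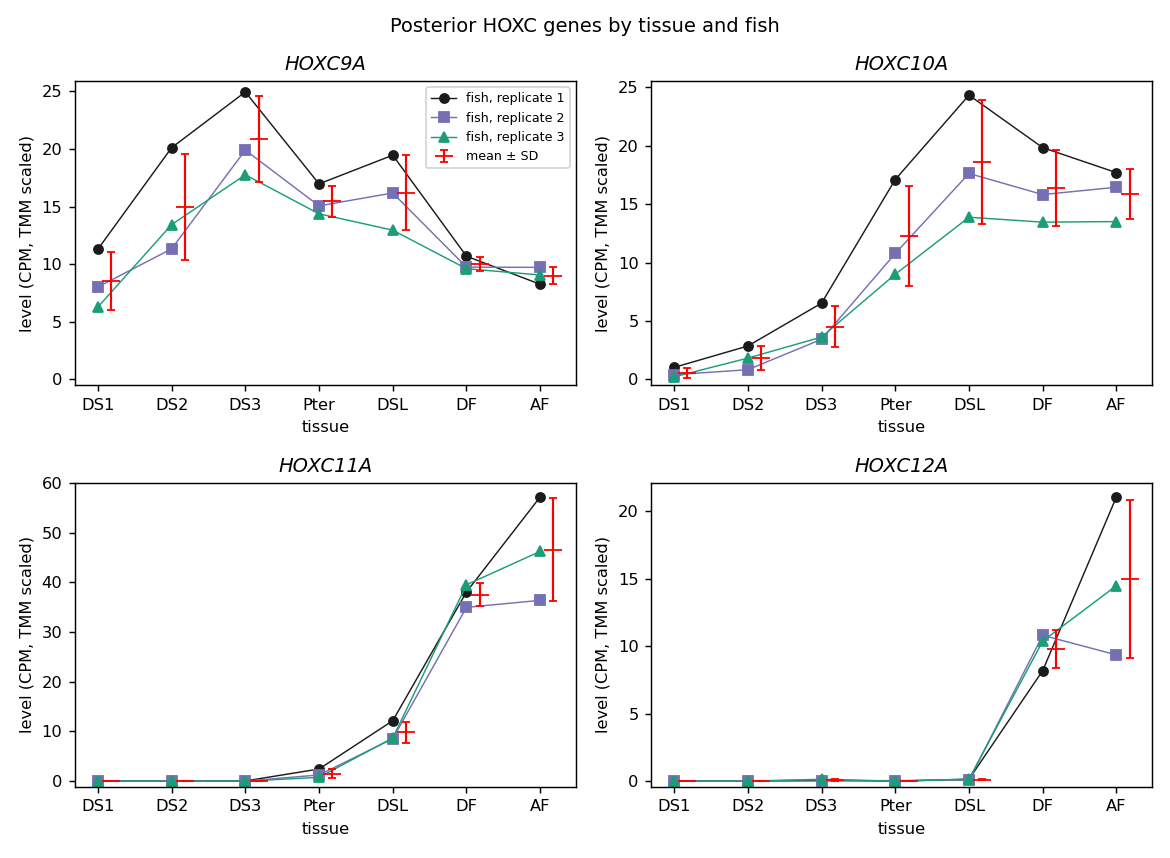
Level of each gene in CPM (y axis, linear, own scale per gene) by tissue (x axis). Points joined by lines are the 3 fish, and red marks are means with SD (n = 3). *HOXC9A* was highest in DS3 (20.9 CPM), *HOXC10A* in DSL (18.6 CPM), and *HOXC11A* and *HOXC12A* in the anal fin (46.6 and 14.96 CPM).

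Per length of exon, the make-up of the posterior *HOXC* transcripts turned over from the first spine to the fins. The kind of structure also changes along this series, from spines and a pterygiophore to fins. Position and kind of structure therefore cannot be told apart here. *HOXC9A* made up 96.7 ± 1.58% of the summed CPM per kb of the 4 genes in DS1, 93.6 ± 1.97% in DS2, 88.8 ± 2.17% in DS3, 65.3 ± 6.44% in Pter, 45.1 ± 1.94% in DSL, 16.9 ± 0.621% in DF and 13.4 ± 3.43% in AF (SD, n = 3 each). *HOXC11A* made up 5.29 ± 2.11% in Pter, 24.7 ± 2.28% in DSL, 57.2 ± 2.61% in DF and 60.5 ± 3.08% in AF. The 3 genes *HOXC9A*, *HOXC10A* and *HOXC11A* thus stood closest to equal parts in DSL, where *HOXC10A* took 29.9 ± 1.90%. *HOXC12A* took 9.82 ± 1.74% in DF and 12.5 ± 2.75% in AF and took at most 0.395% in any other library.

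**Figure D3:**
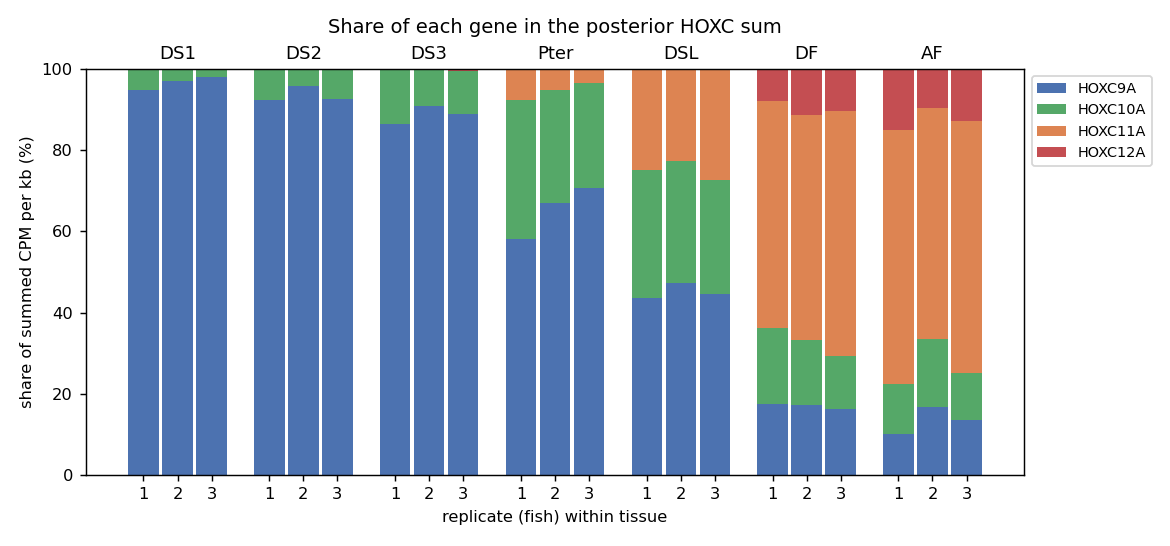
Share of each gene in the summed CPM per kb of the 4 genes (y axis, %) in each of 21 libraries, grouped by tissue with the 3 fish side by side. The *HOXC9A* share was between 95 and 98% in DS1 and between 9.96 and 16.8% in AF.

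The sum of the 4 genes was 5.68 ± 1.79 CPM per kb in DS1, 10.3 ± 3.31 in DS2, 15.1 ± 3.00 in DS3, 15.4 ± 2.96 in Pter, 23.1 ± 5.15 in DSL, 38.1 ± 1.46 in DF and 44.5 ± 8.11 in AF (SD, n = 3 each). In that order each step was upward in 3 of 3 fish, but the step from DS3 to Pter was small and depended on the scaling. On library totals alone, without TMM factors (a comparison added after seeing the data), the sum was 13.7 in DS3 and 12.1 in Pter, higher in Pter in 0 of 3 fish, and the step from DF to AF was upward in 2 of 3 fish. A ratio of 2 genes in the same library does not depend on how libraries are scaled. The ratio of *HOXC10A* to *HOXC9A* per length had a mean of 0.0342 in DS1, 0.0683 in DS2, 0.124 in DS3, 0.457 in Pter, 0.664 in DSL, 0.95 in DF and 1.04 in AF, and it was higher at all 6 steps in each of the 3 fish. The ratio of *HOXC11A* to *HOXC10A* was 0.22, 0.178 and 0.13 in Pter, 0.774, 0.75 and 0.97 in DSL, and 2.98, 3.43 and 4.55 in DF in the fish of replicates 1, 2 and 3. *HOXC11A* therefore passed *HOXC10A* between the last spine and the dorsal fin in all 3 fish. The ratio of *HOXC12A* to *HOXC11A* was 0.172 ± 0.0307 in DF and 0.205 ± 0.0364 in AF (SD, n = 3 each), so that *HOXC12A* stayed below *HOXC11A* in both fins.

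The first question of the design was how neighbouring spines differ. From DS1 to DS2 and from DS2 to DS3, *HOXC9A* and *HOXC10A* were higher in the more posterior spine in 3 of 3 fish, but neither passed the test. Between DS2 and DS1, 0 of 4 members were called, against 0.00473% of tested gene models (1 gene), with 564 gene models at an unadjusted p under 0.05 in edgeR and 6 calls in DESeq2. The log2 difference was 0.81 ± 0.218 for *HOXC9A* and 1.70 ± 0.487 for *HOXC10A* (SE, edgeR adjusted p = 1 for both, and 0.0760 for both with the fish in the model). Between DS3 and DS2, again 0 of 4 members were called, against 0.0142% (3 genes), with 450 gene models at an unadjusted p under 0.05 in edgeR and 7 calls in DESeq2. The log2 difference was 0.48 ± 0.215 for *HOXC9A* and 1.29 ± 0.423 for *HOXC10A* (SE, edgeR adjusted p = 1.00 for both, and 0.510 and 0.0638 with the fish in the model). DS3 was not tested against DS1 here. Both genes were higher in DS3 than in DS1 in 3 of 3 fish without overlap, at pooled ratios of 2.38 for *HOXC9A* and 7.85 for *HOXC10A*. The authors, who used DESeq2 with their own threshold, list both genes as differing between DS1 and DS3 in low-spine *Apeltes*. *HOXC11A* and *HOXC12A* had too few reads in these 3 spines for a fold to be given.

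The step from DS3 to the pterygiophore was marked by *HOXC11A*. It had 100 reads in the 3 Pter libraries against 1 in the 3 DS3 libraries, a ratio of scaled levels of 117 (95% Clopper-Pearson interval 20.5 to 4670, which covers counting error only), with an edgeR adjusted p of 0.000245. It was the 1 member of 4 called, against 3.11% of tested gene models. *HOXC10A* was 2.62-, 3.14- and 2.48-fold higher in Pter in the fish of replicates 1, 2 and 3, a log2 difference of 1.44 ± 0.400 (SE) with an edgeR adjusted p of 0.0596. With the fish as replicate block, which calls 14.9% of tested gene models, *HOXC10A* was called as well (edgeR adjusted p = 7.70e-05). *HOXC9A* went the other way in 3 of 3 fish, at -0.43 ± 0.216 (SE), and did not pass (edgeR adjusted p = 0.359, or 0.0561 with the fish in the model). The *HOXC10A* call also depended on single libraries, since leaving out 1 library gave an edgeR adjusted p of 0.0351 (DS1 replicate 1), 0.0409 (DS1 replicate 3), 0.0434 (DS2 replicate 1), 0.0404 (DS2 replicate 2) or 0.0416 (Pter replicate 3).

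From the pterygiophore to the last spine *HOXC11A* rose again, with 906 reads against 100. Its log2 difference was 2.73 ± 0.324 (SE, edgeR adjusted p = 0.000146), and it was 5.0-, 6.90- and 11.5-fold higher in DSL in the fish of replicates 1, 2 and 3. It was again the 1 member of 4 called, against 9.74% of tested gene models. *HOXC10A* was 1.42-, 1.63- and 1.54-fold higher in DSL, a log2 difference of 0.60 ± 0.383 (SE) that did not pass (edgeR adjusted p = 0.385). With the fish as replicate block, which calls 26.7% of tested gene models, it did (edgeR adjusted p = 0.0176). With TMM factors *HOXC9A* differed by 0.07 ± 0.216 (SE, edgeR adjusted p = 0.910), higher in DSL in 2 of 3 fish. The size of this difference depended on the scaling, since the TMM factors were 0.773 to 0.797 in Pter and 1.07 to 1.11 in DSL. Before scaling, *HOXC9A* had 551, 503 and 443 reads in DSL against 370, 366 and 324 in Pter. *HOXC12A* had 11 reads against 1 (edgeR adjusted p = 0.129).

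Between the last spine and DS3, *HOXC11A* had the lowest p of all 21134 tested gene models and was also first by the size of its log2 difference. It had 906 reads in DSL against 1 in DS3, a ratio of 778 (95% Clopper-Pearson interval 139 to 30700) with an edgeR adjusted p of 1.14e-05, and was the 1 member of 4 called, against 0.0804% of tested gene models (17 genes). *HOXC10A* was 3.73-, 5.14- and 3.83-fold higher in DSL, a log2 difference of 2.04 ± 0.402 (SE) with an edgeR adjusted p of 0.0664. With the fish as replicate block, which calls 7.04% of tested gene models, it was called (edgeR adjusted p = 6.47e-06). Without single libraries the edgeR adjusted p of *HOXC10A* was 0.0353 (DS1 replicate 1), 0.0361 (DS1 replicate 3), 0.0493 (DS2 replicate 1) and 0.0395 (DS2 replicate 2). With TMM factors *HOXC9A* was lower in DSL than in DS3 in 3 of 3 fish, at -0.37 ± 0.215 (SE, edgeR adjusted p = 0.615), and *HOXC12A* had 11 reads against 6 (edgeR adjusted p = 0.853).

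Against the first spine, the last spine had more of *HOXC11A* and *HOXC10A*. These were 2 of 4 members, against 0.208% of tested gene models (44 genes). *HOXC11A* was at least 318-fold higher in DSL, with DS1 set to the floor of 3 counts over its 3 libraries (edgeR adjusted p = 9.18e-07). *HOXC10A* had a log2 difference of 5.03 ± 0.485 (SE, edgeR adjusted p = 1.40e-05), and its fold was 23.7, 43.7 and 64.2 in the fish of replicates 1, 2 and 3, since the 3 DS1 libraries held 37, 14 and 6 reads. Without DS1 replicate 1 the log2 difference of *HOXC10A* was 5.86. *HOXC9A* was 1.72- to 2.06-fold higher in DSL, at 0.92 ± 0.218 (SE), and did not pass (edgeR adjusted p = 0.124). With the fish as replicate block, which calls 1.45% of tested gene models, *HOXC9A* was called (edgeR adjusted p = 0.00136). DESeq2 with tissue only called it as well (DESeq2 adjusted p = 0.00928). *HOXC12A* had 11 reads in DSL against 0 in DS1 (edgeR adjusted p = 0.226).

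The dorsal fin, which lies just behind the last spine, differed from it in *HOXC12A* and *HOXC11A*, 2 of 4 members, against 7.51% of tested gene models. *HOXC12A* had 1025 reads in DF against 11 in DSL, a log2 difference of 6.33 ± 0.502 (SE, edgeR adjusted p = 7.51e-06) and a ratio of 83.2 (95% Clopper-Pearson interval 46.3 to 167). *HOXC11A* was 3.13-, 4.10- and 4.55-fold higher in DF, a log2 difference of 1.94 ± 0.284 (SE, edgeR adjusted p = 0.0010), and lost its call without the fish of replicate 2 (edgeR adjusted p = 0.0514). *HOXC10A* did not pass, at -0.18 ± 0.379 (SE, edgeR adjusted p = 0.893). *HOXC9A* was lower in DF in 3 of 3 fish without overlap of the groups, at -0.69 ± 0.217 (SE, edgeR adjusted p = 0.0599). With the fish as replicate block, which calls 20.8% of tested gene models, *HOXC9A* was called lower (edgeR adjusted p = 0.00198). It was also called lower by DESeq2 (DESeq2 adjusted p = 0.0235) and by edgeR on the compared tissues alone (edgeR adjusted p = 0.0457). Leaving out 1 library gave *HOXC9A* an edgeR adjusted p of 0.0404 (DS1 replicate 1), 0.0405 (DS1 replicate 3), 0.0287 (DS2 replicate 1) or 0.0466 (DSL replicate 3).

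No member passed the test between the anal and the dorsal fin. Between them 0 of 4 members were called, against 0.218% of tested gene models (46 genes), with 337 gene models at an unadjusted p under 0.05 in edgeR and 75 calls in DESeq2. The log2 difference of AF against DF was 0.61 ± 0.352 for *HOXC12A*, 0.31 ± 0.272 for *HOXC11A*, -0.04 ± 0.379 for *HOXC10A* and -0.15 ± 0.218 for *HOXC9A* (SE, edgeR adjusted p = 1 for all). *HOXC12A* was 2.57- and 1.40-fold higher in AF in the fish of replicates 1 and 3 and 0.866-fold in that of replicate 2, while *HOXC11A* was higher in AF in 3 of 3 fish.

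**Figure D4:**
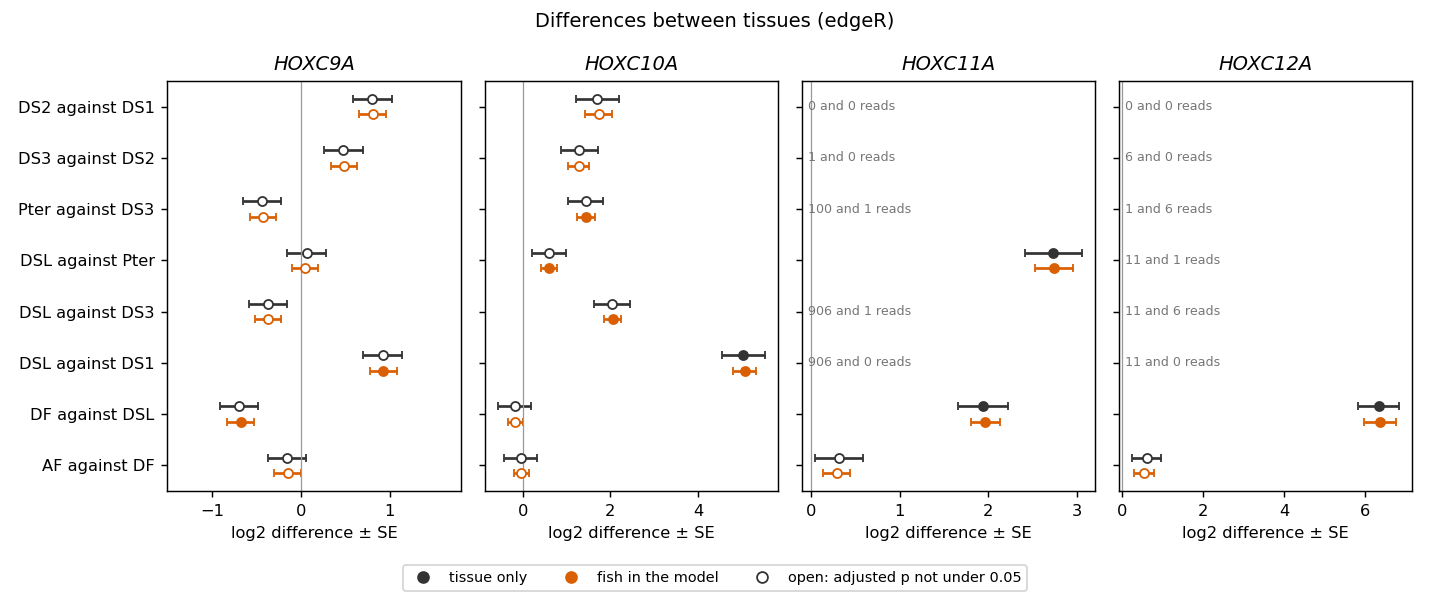
Log2 difference with SE between tissues (x axis, own scale per gene) for each comparison (y axis) and gene, from edgeR with tissue only (black) and with the fish in the model (orange). Filled points passed an adjusted p of 0.05, and comparisons in which a group had fewer than 10 reads are shown by their reads instead. The 2 models gave nearly the same differences, and the SE of *HOXC10A* between Pter and DS3 was 0.400 without and 0.202 with the fish.

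The fish themselves differed in a way that returned from tissue to tissue. The fish of replicate 1 had the highest *HOXC10A* level in 7 of 7 tissues and the highest *HOXC9A* level in 6 of 7. For *HOXC11A* it was highest in 4 of the 5 tissues with reads and for *HOXC12A* in 1 of the 5. The same fish was highest in 7 of 7 tissues for 17.5% of all tested gene models, and for 2.84% that fish was replicate 1. Which property of this fish went with its higher *HOXC10A* was not tested.

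Of the genes next to the 4 members, *HOXC8A* was lowest in the fins, and *HOXC13A* had few reads in any tissue. *HOXC8A*, the next gene towards the anterior end, had mean levels of 35.7 ± 4.65 CPM in DS1, 57.9 ± 0.846 in DS3, 36.4 ± 7.88 in Pter, 29.4 ± 0.704 in DSL, 14.4 ± 0.476 in DF and 11.44 ± 1.575 in AF (SD, n = 3 each). It was called lower in Pter than in DS3 (-0.67 ± 0.137, SE, edgeR adjusted p = 0.0102) and in DF than in DSL (-1.03 ± 0.139, SE, edgeR adjusted p = 0.000189). *HOXC13A*, the next gene towards the posterior end and known in mouse for hair and nail, had 0 reads in the 12 libraries of DS1, DS2, DS3 and Pter. It had 1 read in DSL, 6, 11 and 1 in DF and 25, 1 and 0 in AF, and so did not pass the filter for testing.

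There were 6 other *HOXC* gene models, and 4 of them were tested. None was called higher in any of the 8 pairwise comparisons by the model with tissue only. Called lower were 2 of 4 in Pter against DS3, 1 in DSL against Pter, 2 in DSL against DS3, 1 in DSL against DS1 and 1 in DF against DSL. The shares of tested gene models called in either direction were 3.11, 9.74, 0.0804, 0.208 and 7.51% in the same order. The gene called in DSL against Pter was *HOXC6A* (-0.48 ± 0.0964, SE, edgeR adjusted p = 0.00405). As for *HOXC9A*, the size of a difference between these 2 tissues depended on the scaling. The TMM factors were 0.773 to 0.797 in Pter and 1.07 to 1.11 in DSL. In the model with the fish as replicate block, *HOXC4A* was called higher in DSL against DS1 (1.03 ± 0.146, SE, edgeR adjusted p = 0.000409). Called lower with the block were again 2 in Pter against DS3, 2 in DSL against DS3 and 1 in DSL against DS1. The count rose to 2 in DSL against Pter and to 3 in DF against DSL. The block calls 14.9, 7.04, 1.45, 26.7 and 20.8% of tested gene models in these comparisons, in the same order. *HOXC9A* was likewise lower in Pter and DSL than in DS3 and in DF than in DSL, as given above, and no difference between it and the other *HOXC* genes was tested. *HOXC6A*, a gene of the middle of the cluster, was lower in DSL than in DS3 at -0.84 ± 0.0963 (SE, edgeR adjusted p = 0.000554) and lower in DSL than in DS1 at -0.85 ± 0.0961 (SE, edgeR adjusted p = 0.000113). *HOXC4A* had a log2 difference of 0.69 ± 0.216 in DS3 against DS2 (SE, edgeR adjusted p = 1.00).

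Paralogues of groups 9 to 12 in the *HOXA*, *HOXB* and *HOXD* clusters were 13 genes, all of them tested. In DSL against DS1, 8 of 13 were called, all higher, against 0.208% of tested gene models called in either direction. With the fish as replicate block, which calls 1.45% of tested gene models, 8 were called higher and 1 lower. The lower 1 was *HOXB9A* (-1.08 ± 0.162, SE, edgeR adjusted p = 0.000678). With tissue only, the 13 genes had a median log2 difference of 2.82, against a median over all tested gene models of -0.02. The 4 members had a median of 4.96 there, which includes fitted values of genes without reads in DS1. In DSL against Pter 5 of 13 were called, all higher, against 9.74% of tested gene models. Among them were *HOXA11A* (2.31 ± 0.318, SE, edgeR adjusted p = 0.000160) and *HOXD11A* (1.95 ± 0.375, SE, edgeR adjusted p = 0.00298), both of the group of *HOXC11A*. In DF against DSL 3 were called higher and 3 lower, against 7.51% of tested gene models in either direction. *HOXD12A*, of the group of *HOXC12A*, was at 7.52 ± 0.600 (SE, edgeR adjusted p = 1.20e-06) and *HOXB9A*, of the group of *HOXC9A*, at -2.55 ± 0.251 (SE, edgeR adjusted p = 8.84e-06). The paralogues of *HOXC11A* were split there. *HOXD11B* was called lower (-1.97 ± 0.283, SE, edgeR adjusted p = 0.000333) and *HOXA11B* higher (1.95 ± 0.481, SE, edgeR adjusted p = 0.0184). *HOXA11A* and *HOXD11A* were not called. With the fish as replicate block, which calls 20.8% of tested gene models, 4 of the 13 were called higher and 5 lower. *HOXA11A* was then among those called higher (0.39 ± 0.131, SE, edgeR adjusted p = 0.0371).

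Between neighbouring anterior spines *HOXD9B* was called higher in DS2 than in DS1 (5.54 ± 0.511, SE, edgeR adjusted p = 6.52e-05), and *HOXD9B* and *HOXD11B* were called higher in DS3 than in DS2 (3.86 ± 0.269 and 4.59 ± 0.358, SE, edgeR adjusted p = 7.43e-07 and 2.31e-06). *HOXC9A* was not called in either comparison. *HOXC11A*, with 1 read in DS3 and 0 in DS2, had too few reads there to be compared with *HOXD11B*. In Pter against DS3, where 3.11% of tested gene models were called, 1 of 13 was called higher, *HOXA10B* (1.64 ± 0.287, SE, edgeR adjusted p = 0.00325). Called lower were 2, *HOXB9A* at -1.53 ± 0.235 (SE, edgeR adjusted p = 0.00108) and *HOXA11A* at -1.57 ± 0.315 (SE, edgeR adjusted p = 0.00913). *HOXA11A* is of the group of *HOXC11A*, which was called higher at this step. The counts among the 13 became 3 higher and 4 lower with the fish as replicate block, which calls 14.9% of tested gene models. In DSL against DS3, 1 of 13 was called, *HOXD11A* (3.22 ± 0.403, SE, edgeR adjusted p = 0.00118), against 0.0804% of tested gene models. With the block, which calls 7.04% there, 9 were called, 8 higher and 1 lower. In AF against DF none was, against 0.218% of tested gene models, with *HOXB9A* at -0.31 ± 0.259 and *HOXD9A* at -0.26 ± 0.231 (SE, edgeR adjusted p = 1 for both). Over the 7 tissues together 12 of 13 were called, against 20.2% of tested gene models.

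The gene models most like each member over the 21 libraries were partly its own paralogues. Likeness was the Pearson correlation of log2 CPM (prior count of 2) over 21 libraries that share 3 fish, given as a description. The ranking is loose, since with the 7 tissue means in place of the libraries 0 or 1 of the 3 most alike gene models remained for each member. For *HOXC10A* the 3 most alike of all tested gene models were *HOXD10A* (r = 0.95), *HOXD11A* (r = 0.927) and *HOXA10B* (r = 0.920). *HOXD10A* had 2.02 CPM in DS2, 5.98 in DS3, 15.1 in DSL and 10.6 in DF, and like *HOXC10A* was highest in DSL. For *HOXC11A* they were STRG.21857 (r = 0.962), *HOXA11B* (r = 0.946) and *HOXD11A* (r = 0.929). STRG.21857 carries only an ID and had mean levels of 20.1 CPM in Pter, 40.8 in DSL and 398 in DF.

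For *HOXC12A* the most alike were STRG.23479 (r = 0.984), *HOXD12A* (r = 0.98) and *HOXA13B* (r = 0.979). *HOXD12A* had 0.0988 CPM in DSL and 18.5 in DF, and *HOXA13B* had 0.170 and 9.87. The log2 difference of DF against DSL was 6.33 for *HOXC12A*, 7.52 for *HOXD12A* and 5.82 for *HOXA13B*. For *HOXC9A* they were *HOXC5A* (r = 0.875), STRG.13556 (r = 0.842) and STRG.7424 (r = 0.809), and the next *Hox* gene was *HOXA7A* (r = 0.804). Its most alike *Hox* genes were thus of more anterior groups, with *HOXC5A* at 24.4 CPM in DS1, 34.3 in DS3 and 22.1 in DF. Among the members r was 0.83 between *HOXC10A* and *HOXC11A* and also between *HOXC11A* and *HOXC12A*, 0.571 between *HOXC10A* and *HOXC12A*, and 0.27, -0.289 and -0.469 between *HOXC9A* and the other members in cluster order.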

How the data were processed

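RNA was sequenced from 21 libraries with a stranded mRNA kit. The authors deposited 1 table of whole-number counts per gene model without normalization, with exon lengths in bp; models came from StringTie on their own assembly and *Hox* genes were named by BLAST. Submitters' processing notes name Trim Galore, cutadapt 2.4, FastQC 0.11.9, STAR and featureCounts (Subread 2.0.1). Whether reads were counted by strand is not given in the sources used here. The other 85 of 106 columns were not used. Other gene models mostly carry only IDs, so cell-type markers of the tissues were not analysed here.

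Genes were kept by filterByExpr (21134 gene models; 0.0403% of counts set aside) and scaled by TMM, whose factors were 0.773 to 0.797 in Pter. Differences were tested two-sided on all 21 libraries with edgeR 4.0.16 (quasi-likelihood F test, tissue only, Benjamini-Hochberg adjustment over all tested gene models, threshold 0.05) in R 4.3.3. The SE of a log2 difference was derived from that test, as the absolute difference divided by the square root of F. The steps were tested on simulated data that held no differences between fish. Alternatives were DESeq2 1.42.0, limma-voom (limma 3.58.1), relative log expression factors, no filter, 1 CPM in 6 libraries, the compared tissues alone, the fish as replicate block, and leaving out each fish or library. Replicate numbers mark the same fish by the sample titles. Deviations from tissue means correlated at 0.52 or more in all 63 same-fish pairs (median 0.620). The median between fish, -0.314, is negative by construction, since the deviations of the 3 fish in a tissue cancel out. No libraries of a tissue were duplicates (chi-square per degree of freedom 26.6 to 305.9). Read ratios pool the 3 libraries of a tissue.

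The named genes were the 4 members, their cluster neighbours, the 3 most alike gene models and 2 most alike *Hox* genes per member, and per comparison up to 2 paralogues and 1 other *HOXC* gene with the lowest p. Added after the values were seen were *HOXA11A* in Pter against DS3, *HOXB9A* in DSL against DS1 and the paralogues of *HOXC11A* in DF against DSL. Members and lists were chosen with earlier results of these data known.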

Additional observations from a re-analysis of the deposited data

How the results depend on the processing

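No result of the members changed direction past the threshold under any alternative run. Of 1104 values for single genes under alternatives, 1077 kept their side of the threshold, 25 passed it only under the alternative and 2 lost it. The values that kept their side include *HOXC11A* and *HOXC12A* in DS2 against DS1, which had 0 reads in both groups and could not change. With the fish as replicate block, calls rose to 10374 over the 7 tissues, 3157 in Pter against DS3, 5648 in DSL against Pter, 1488 in DSL against DS3, 306 in DSL against DS1, 4393 in DF against DSL and 90 in AF against DF. Members called rose to 2 in Pter against DS3, DSL against Pter and DSL against DS3, and to 3 in DSL against DS1 and DF against DSL. DESeq2 gave 6 calls in DS2 against DS1, 7 in DS3 against DS2, 1076 in Pter against DS3, 265 in DSL against DS3, 152 in DSL against DS1 and 75 in AF against DF. DESeq2 and limma-voom each called 2 members in Pter against DS3 and in DSL against DS3, and limma-voom called 0 genes in DS2 against DS1 and 30 in DSL against DS3. DESeq2 also called *HOXC9A* in DSL against DS1 and in DF against DSL, and the fit on the compared tissues alone called it in DF against DSL. Fitted on the compared tissues alone, with fewer samples, calls were 0 in DS2 against DS1, 140 in Pter against DS3, 933 in DSL against Pter, 9 in DSL against DS3, 15 in DSL against DS1 and 8 in AF against DF. Leaving out 1 fish or library gave 866 to 4794 calls over the 7 tissues (3 to 4 members), 0 to 1 in DS2 against DS1, 2 to 4 in DS3 against DS2, 78 to 757 in Pter against DS3 (1 to 2 members), 320 to 2427 in DSL against Pter, 1 to 67 in DSL against DS3 (1 to 2 members), 14 to 46 in DSL against DS1, 241 to 1824 in DF against DSL (1 to 3 members) and 9 to 50 in AF against DF. Of the 3 gene models most like a member, 1, 0, 0 and 1 remained for *HOXC9A*, *HOXC10A*, *HOXC11A* and *HOXC12A* when the 7 tissue means were used, and 1, 2, 1 and 2 with fish means removed (replicate block). On library totals alone, an alternative added after seeing the data, the summed level of the 4 genes was higher in Pter than in DS3 in 0 of 3 fish, against 3 of 3 with TMM factors. The cause of these shifts was not tested.

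Depth limits *HOXC11A* and *HOXC12A* in the anterior spines, where 0 reads in 6 libraries allow up to 0.016 CPM, and the 1 read of *HOXC11A* in DS3 leaves its ratios with wide intervals. Between Pter and DS3, the SE of *HOXC10A* with tissue only was 0.400, and a 2.69-fold pooled difference missed the threshold. With the same 3 fish in the model the SE was 0.202, and the gene was called.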

Other observations

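A filter on reads chosen after the values were seen picked out few gene models besides the members. Of all 31532 gene models, 3 had at most 10 reads in each of the 15 spine and pterygiophore libraries and at least 100 in each of the 6 fin libraries, and all 3 were posterior *Hox* genes of different clusters: *HOXC12A*, *HOXD12A* and *HOXA13B*. Only 1 gene model, *HOXC11A*, had 0 reads in each of the 6 DS1 and DS2 libraries and at least 100 in each of the 3 DSL libraries. Since the cutoffs were chosen after the values were seen, these counts do not make a pattern particular to 1 gene or to *Hox* genes. STRG.23479, the gene model most like *HOXC12A*, was not picked out by the filter. Its mean level was 0.165 CPM in DSL, 11.7 in DF and 13.7 in AF. Of the 13 paralogues of groups 9 to 12, 8 were called higher in DSL than in DS1 with tissue only and 0 lower. With the fish as replicate block 8 were called higher and 1 lower, *HOXB9A*. With tissue only the log2 differences were 10.5 for *HOXD9B* and 9.16 for *HOXD11B*. No test was made of either pattern.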
